A study of Mus musculus with 4 samples.

Results

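The comparison set GqCNO against GqVeh mice in the substantia nigra (SN), across all genes of the midbrain arrays, to ask how 1 week of chemogenetic activation changed the transcripts found at dopamine neurons. The members were the SN columns of 6 of the 8 mice of the series: GqCNO mice 801, 804 and 781 and GqVeh mice 802, 784 and 785, one SN value per gene and mouse. Of 17220 genes listed for the midbrain, 6174 had a mean of at least 0.25 UMIs per 10000 over the 8 SN columns and were tested. Values below are levels in UMIs per 10000, that is, unique molecular identifiers (counted transcript molecules) of a gene out of every 10000 in that column, and differences are on the log2 scale after 0.5 was added to each level.

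All mice were males of 3 to 4 months, homozygous for DATIREScre (DATCre in the labels), which places Cre recombinase under the dopamine transporter gene, and were housed singly with a running wheel. GqCNO and GqVeh mice both carried hM3Dq(Gq)-mCherry in dopamine neurons, delivered by a Cre-dependent AAV with the human synapsin promoter, injected into the midbrain on both sides. GqCNO mice drank clozapine-N-oxide (CNO) at 300 mg/L in 2% sucrose for 1 week, and GqVeh mice drank 2% sucrose alone. The 2 CNO alone mice, C2W2 and C1W7, had no injection and drank CNO. They shared the fit and served as side values. Mice 801, 804, 802 and C2W2 lay on array pair 1, and mice 781, 784, 785 and C1W7 on array pair 2, so both groups were on both pairs, but unequally.

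SN dopamine neurons make dopamine from tyrosine through tyrosine hydroxylase (Th) and aromatic L-amino acid decarboxylase (Ddc), load it into vesicles through Slc18a2 and take it back up through the transporter Slc6a3. They fire as pacemakers, carry very large axonal arbors and are the cells lost first in Parkinson's disease. hM3Dq is an engineered receptor that couples to Gq and depolarizes the cell when CNO, or what CNO is turned into, binds it. Around the neurons, microglia and astrocytes respond to injury or infection by raising complement, interferon-response and antigen presentation genes, in which class I molecules (a heavy chain with B2m) present peptides from inside the cell and class II molecules, with the invariant chain Cd74, present peptides taken up from outside.

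Each SN column averaged a few discs of 55 µm on a 10 µm section, and the depth differed widely. Mouse 801 rested on 1 disc and 7779 UMIs, mouse 804 on 5 discs and 58362 UMIs, and mouse 781 on 1 disc and 14717 UMIs. GqVeh mouse 802 had 5 discs and 49563 UMIs, mouse 784 had 5 discs and 11644 UMIs, and mouse 785 had 6 discs and 56983 UMIs. Mouse 784 thus held 2329 UMIs per disc, against 7779 to 14717 in the other 7 mice. Disc counts are those of the labels, and UMI totals were inferred from the averaged values. The reason for the low figure of mouse 784 was not tested. A count of 0 allows a level of up to 3.86 in mouse 801, 2.04 in mouse 781 and 2.58 in mouse 784, and up to 0.514 to 0.605 in the other 3, for counting error only. Of the 6174 genes tested, 3070 were at 0 in mouse 801, 2432 in mouse 781 and 2546 in mouse 784.

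The discs were chosen by the study for Th, Slc6a3 and Slc18a2 signal, a complete TH-positive soma and, in injected mice, mCherry, and discs high in Gfap, Aldh1l1, Aif1 or P2ry12 were left out. The levels of these genes therefore also reflect how discs were picked. Th stood at 5.14, 7.03 and 27.9 in GqCNO mice 801, 804 and 781, at 26, 16.3 and 17.5 in GqVeh mice 802, 784 and 785, and at 26.7 and 21.7 in CNO alone mice C2W2 and C1W7. Since discs were picked for it, its presence does not check the label, and it was lowest in mice 801 and 804. In mouse 801, Slc6a3, Ddc, Slc10a4 and Drd2 were all at 0, where a count of 0 allows 3.86. P2ry12, a microglial receptor, was at 0 in all 3 GqCNO mice and at most 0.202 elsewhere, while Gfap, the astrocyte filament, reached 15.4, 15.6 and 8.15 in the GqCNO mice against 6.25, 7.73 and 1.4 in the GqVeh mice.

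In all, 12 genes passed an adjusted p of 0.05. Of these, 4 were higher in GqCNO mice (0.0648% of the genes tested): the hemoglobin genes Hba-a1, Hba-a2 and Hbb-bs, and Cd74. The other 8 were lower (0.13%): Aldh1a1 and Ddc of dopamine neurons, the growth and cytoskeleton genes Gap43, Stmn2 and Tubb2a, the neuronal genes Rtn1 and Aplp1, and the long noncoding RNA Meg3. A further set reached only an unadjusted p under 0.05, which with the called genes made 175 higher (2.83%) and 201 lower (3.26%). All 3 GqCNO levels lay above all 3 GqVeh levels for 228 genes (3.69%) and below them for 430 (6.96%). The median difference over all genes tested was -0.06.

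**Figure D1:**
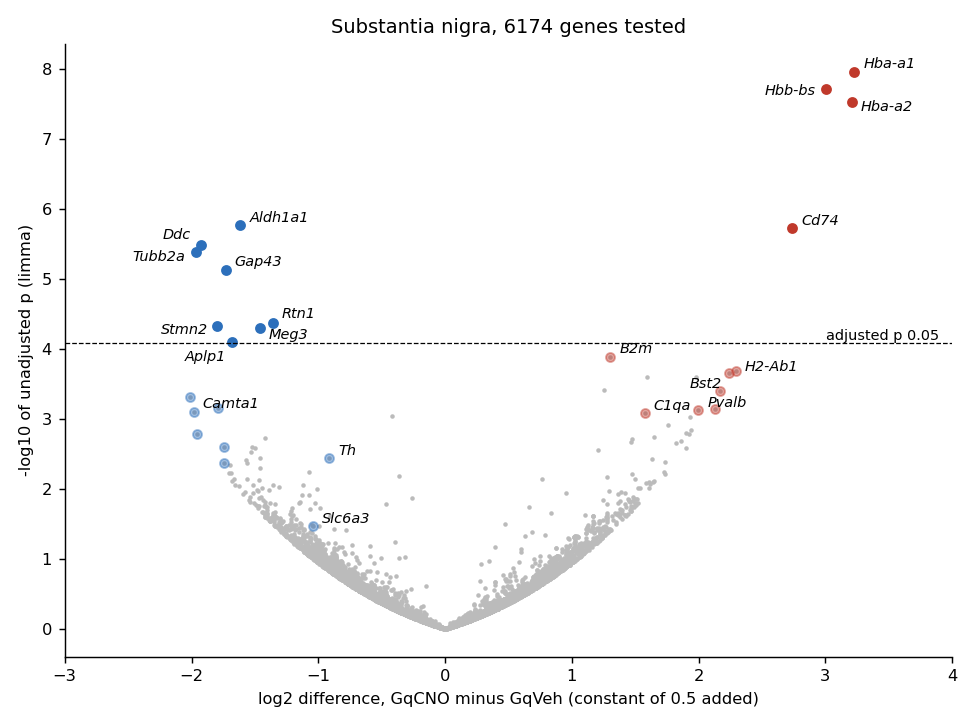
Each grey point is 1 of the 6174 genes tested in the SN, with the log2 difference of GqCNO minus GqVeh on the x axis and -log10 of the unadjusted limma p on the y axis. Dark red and dark blue points are the 4 higher and 8 lower genes that passed an adjusted p of 0.05, the dashed line marks that threshold, and paler points are other named genes, with B2m just under the line.

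The calls rested on a shared spread. limma estimated an infinite prior, so each gene's error came from genes of the same mean level and not from its own mice, and a gene could pass although its groups overlapped, as Cd74, Aldh1a1, Ddc, Stmn2 and Aplp1 did. With 3 mice against 3, the exact permutation test of a single gene has 20 splits and cannot go below p = 0.1. Leaving out the trend of the spread with level, an alternative chosen after seeing the data, kept all 4 higher genes and none of the 8 lower ones. No gene was called lower without mouse 804 or without mouse 802, and Aldh1a1 alone was without mouse 801. Of the 201 genes lower at an unadjusted p under 0.05, 169 (84.1%) were at 0 in mouse 801, where 49.7% of all genes tested were. Of the 175 higher ones, 134 (76.6%) were at 0 in mouse 784, where 41.2% of all genes were.

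The strongest rise was in the hemoglobin genes, which encode the oxygen carrier of red blood cells. Hba-a1, an alpha-globin gene (GRCm38.p6, chromosome 11, 32283672 to 32284486), stood at 11.6, 8.91 and 1.36 in GqCNO mice 801, 804 and 781 and at 0, 0 and 0.526 in GqVeh mice 802, 784 and 785. No level of the groups overlapped, and the mean was 7.28 ± 5.3 against 0.175 ± 0.304 (SD, n = 3 each). The 0 of mouse 784 allows up to 2.58, above the 1.36 of mouse 781, so counting does not set these mice apart. The log2 difference was 3.23 ± 0.56 (SE), with an adjusted p of 6.06e-05 in limma. Without mouse 804 the hemoglobin differences were 2.9 for Hba-a1, 2.6 for Hbb-bs and 3.21 for Hba-a2 and none passed. The GqVeh group held only 3 Hba-a1 UMIs in all against 63 in the GqCNO group, a ratio of summed UMIs per depth of 30.7 (95% exact interval 10.0 to 153), which covers counting error only.

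Hba-a2, the neighboring alpha-globin gene, was at 9.0, 4.97 and 2.72 in the GqCNO mice and at 0, 0 and 0.351 in the GqVeh mice. Hbb-bs, the adult beta-globin gene, was at 10.3, 11.7 and 2.04 and at 0.202, 0.859 and 0.175. Both groups were again apart for both genes, with differences of 3.21 ± 0.58 and 3.0 ± 0.53 and adjusted p = 6.09e-05 and 6.06e-05. Hbb-bt, the second adult beta-globin gene, was at 1.29, 1.37 and 1.36 against 0, 0 and 0.175 and did not pass (adjusted p = 0.650). Its GqCNO levels all lay below the 2.58 that the 0 of mouse 784 allows. So 3 of the 4 tested genes of a list of 5 red blood cell genes passed, all upward.

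The alpha-globin genes are not read here as separate witnesses. Their starts lie 12820 bases apart, and 297 of the 300 bases around each start form the same run in the RefSeq promoter table. These windows reach only 50 bases past each start. Whether reads of one copy were counted for the other was not tested. The Hba-a1 window, 250 bases before to 50 after its start on the plus strand of GRCm38.p6 (chr11:32283422-32283721), is shown as the copy that both share. Capitals mark its only match to the CCAAT box, searched as CCAAT or ATTGG and found in 37.4% of all promoters of this length.
Hba-a1: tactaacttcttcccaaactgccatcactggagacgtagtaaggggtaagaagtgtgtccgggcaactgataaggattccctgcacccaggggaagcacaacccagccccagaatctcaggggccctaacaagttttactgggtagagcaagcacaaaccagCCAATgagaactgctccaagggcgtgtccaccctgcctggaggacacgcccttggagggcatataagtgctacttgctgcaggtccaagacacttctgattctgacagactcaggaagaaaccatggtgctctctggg

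The CNO alone mice, which had no receptor, differed in hemoglobin level. CNO alone mouse C2W2, on array pair 1, had Hba-a1 at 5.81, below both GqCNO mice of that pair and above all GqVeh mice, while C1W7, on array pair 2, had 0.417. The summed level of the 5 red blood cell genes was 32.1, 27.1 and 7.47 in GqCNO mice 801, 804 and 781, 0.202, 0.859 and 1.23 in GqVeh mice 802, 784 and 785, and 18.5 and 1.95 in CNO alone mice C2W2 and C1W7. On array pair 1 alone Hba-a1 differed by 4.41, and on array pair 2 alone by 1.38, upward in both. In the ventral tegmental area (VTA) of the same mice the Hba-a1 difference was 0.94 ± 0.60 (adjusted p = 0.571). The part of red blood cells in the sections was not tested.

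**Figure D2:**
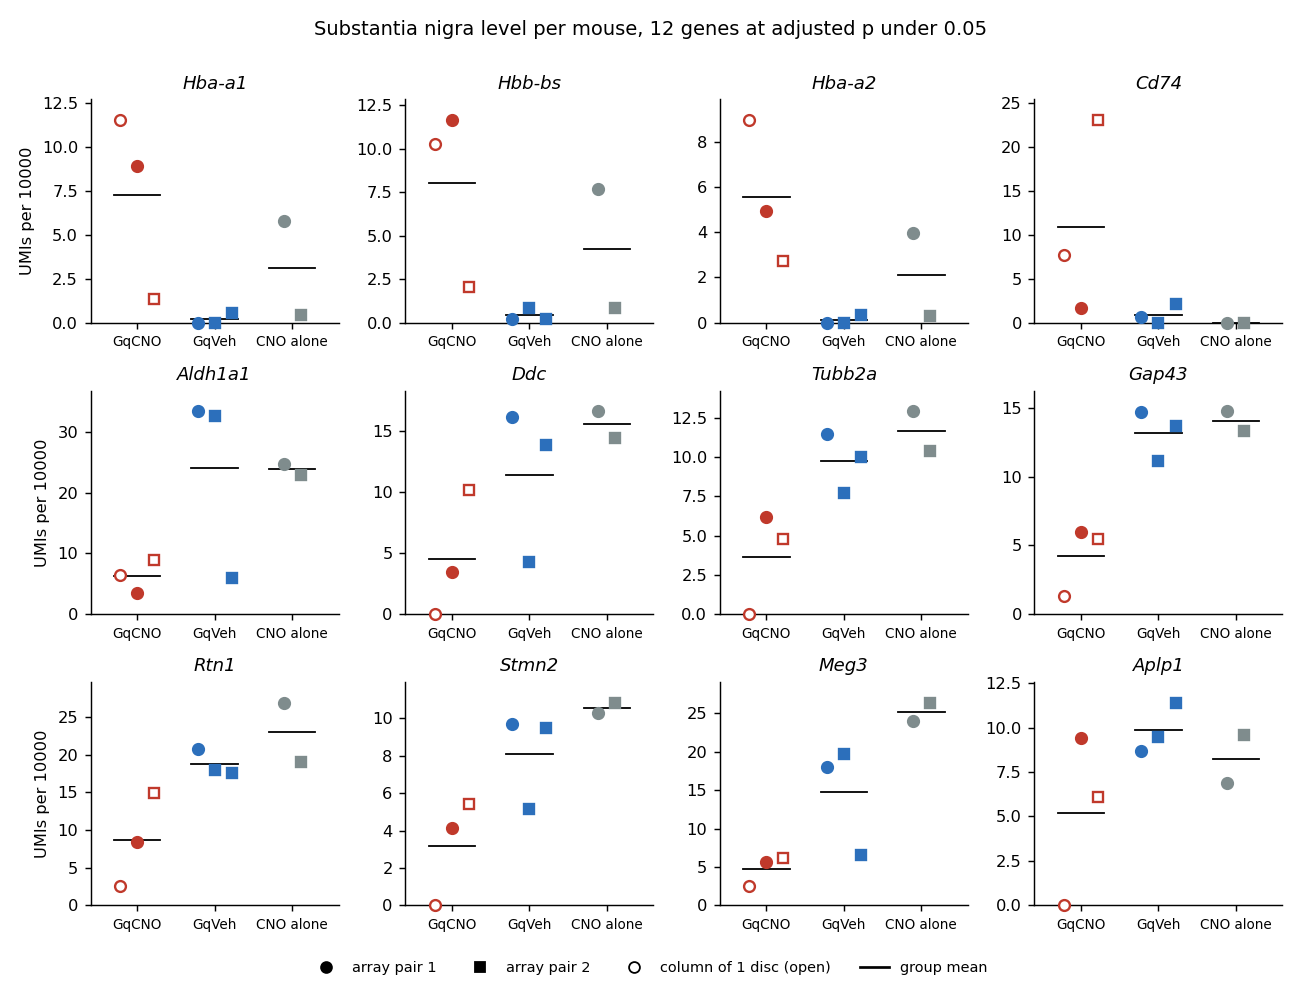
Level in UMIs per 10000 (y axis, each panel with its own scale from 0) of the 12 genes at an adjusted p under 0.05, 1 point per mouse, with circles for array pair 1, squares for array pair 2, open symbols for the columns of 1 disc and a line at the group mean. The hemoglobin panels show CNO alone mouse C2W2 between the GqVeh mice and the GqCNO mice of its array pair, and Ddc, Tubb2a, Stmn2 and Aplp1 show mouse 801 at 0.

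Antigen presentation and interferon-response genes were mostly higher in GqCNO mice. Of 51 genes listed, 41 were tested, 39 of them had a positive difference, and the median was 1.02, against -0.06 over all genes. Of the 41, 1, Cd74, passed an adjusted p of 0.05, and 17 reached an unadjusted p under 0.05, all of them upward, where 2.83% of all genes did. All 3 GqCNO levels lay above all 3 GqVeh levels for 9 of the 41, against 3.69% of all genes. The median was 1.04 on array pair 1, 1.02 on array pair 2 and 1.28 without mouse 801. The whole list summed to 127, 224 and 164 in GqCNO mice 801, 804 and 781, to 49.2, 75.6 and 39.3 in GqVeh mice 802, 784 and 785, and to 8.72 and 13.4 in the uninjected CNO alone mice. The lowest GqCNO mouse thus lay above the highest GqVeh mouse, and both lay above the mice that had no AAV.

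Cd74, the invariant chain of class II molecules, was at 7.71, 1.71 and 23.1 in GqCNO mice 801, 804 and 781 and at 0.605, 0 and 2.11 in GqVeh mice 802, 784 and 785. Mouse 781 was far above the rest, and mouse 804 lay below GqVeh mouse 785, so the groups overlapped. The difference was 2.74 ± 0.57 with an adjusted p of 0.00234, and the exact permutation p was 0.200 (2-sided). Cd74 did not pass without mouse 781, without mouse 802 or without mouse 784. H2-Ab1, a class II beta chain that pairs with the alpha chain H2-Aa, was at 5.14, 1.2 and 5.44 against 0.202, 0 and 0.877. Its groups were apart and its difference was 2.29 ± 0.62, with an adjusted p of 0.0897. The 0 of mouse 784 allows up to 2.58, above the 1.2 of mouse 804. H2-Aa was at 1.29, 0.514 and 8.83 against 0.605, 0.859 and 0.526, high in mouse 781 alone. Cd74, H2-Ab1 and H2-Aa were at 0 in both CNO alone mice.

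B2m is the light chain common to class I molecules. Its level was 27, 45.4 and 44.2 in GqCNO mice 801, 804 and 781 and 11.9, 28.3 and 10.0 in GqVeh mice 802, 784 and 785, and only 1.85 and 1.25 in the CNO alone mice. Mouse 784 lay just above mouse 801, and the other GqVeh mice lay well below all GqCNO mice. The difference of 1.3 ± 0.34 had an adjusted p of 0.0621, and whether B2m passed depended on the setting. It passed without mouse 801 at 1.54 (adjusted p = 0.00737) and without mouse 784. Dropping mouse 804, 781, 802 or 785 instead did not make it pass. B2m also passed among the 6 mice alone, at a constant of 0.1 and under array weights. It did not pass in edgeR, DESeq2, TMM scaling or the array block fit. The class I heavy chain H2-D1 was at 9.0, 24.5 and 17.7 against 4.84, 5.15 and 4.74, and H2-K1 at 5.14, 19.4 and 17 against 4.64, 5.15 and 2.63. H2-D1 groups were apart (difference 1.59 ± 0.43, adjusted p = 0.0913), while H2-K1 of mouse 784 reached that of mouse 801 (difference 1.48 ± 0.48, adjusted p = 0.340).

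Among interferon-response genes, Bst2, the tetherin that holds back enveloped viruses, was at 3.86, 6.68 and 2.04 against 0.605, 0.859 and 0. Its groups were apart, with a difference of 2.24 ± 0.61 and an adjusted p of 0.0913. Psmb8, an immunoproteasome subunit, was at 2.57, 4.46 and 2.72 against 0.202, 1.72 and 0.351, also apart (adjusted p = 0.524). Isg15, a ubiquitin-like protein, was at 1.29, 6.0 and 0 against 0, 0.859 and 0.175, so mouse 804 was high and mouse 781 was at 0. Ifit1, which binds foreign RNA, was at 2.57, 8.74 and 0 against 1.41, 0.859 and 0.175, again highest in mouse 804 and at 0 in mouse 781. edgeR, which weights the deeper columns more, called 14 genes higher, among them Bst2, Ifi27l2a, Ifit1, Ifit3, Igtp, Isg15, Psmb8, Ccl5, Cxcl10 and Serpina3n beside the 4 higher genes of limma, and called 1 lower, Aldh1a1.

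**Figure D3:**
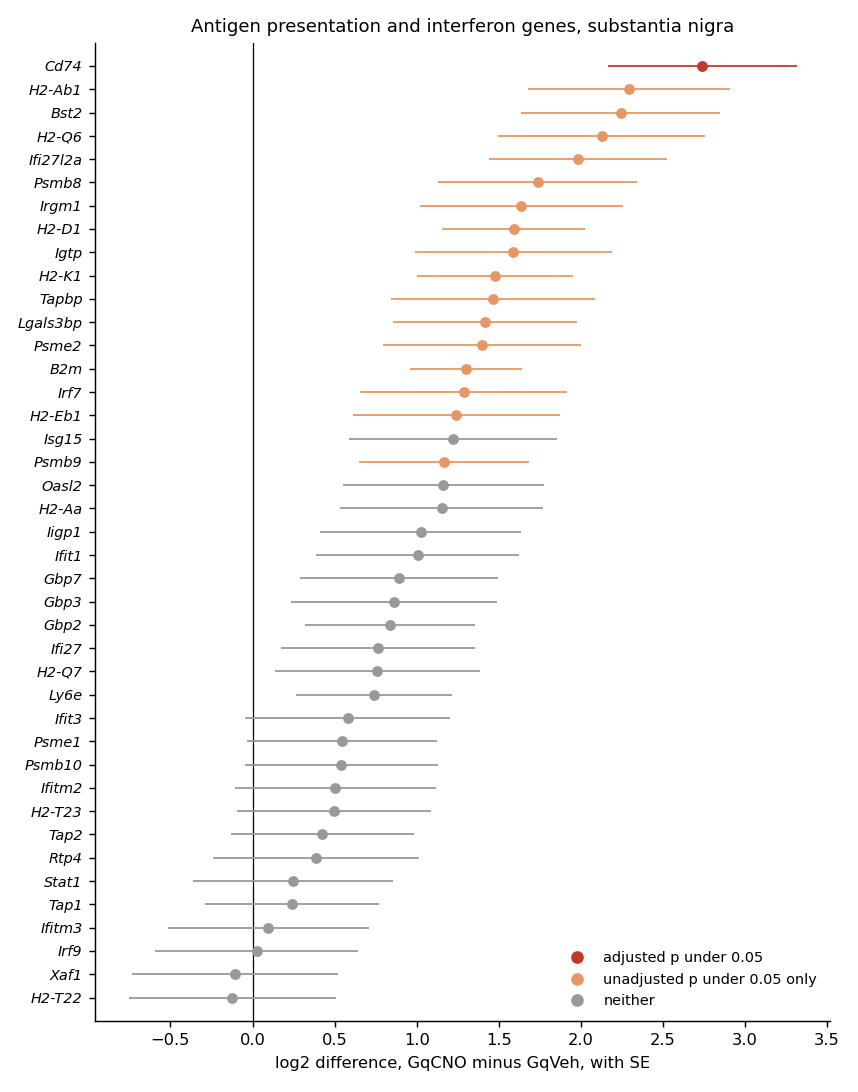
The log2 difference of GqCNO minus GqVeh (x axis, with its SE as a bar) in the SN for each of the 41 tested antigen presentation and interferon-response genes (y axis, sorted by difference). All but 2 points lie right of 0, 1 of them (Cd74, dark red) passed an adjusted p of 0.05 and 16 more (orange) reached only an unadjusted p under 0.05.

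The start regions of this list were searched for the interferon-stimulated response element in the form GAAA, any 2 bases and GAAA, on either strand, since its members are known for it. Of the 41 genes, 32 had a promoter in the RefSeq table, and 15 of the 32 held a match, against 3.44% of all 32851 promoters of 300 bases. B2m and Bst2 are printed as a class I and an interferon-response member that hold a match, matches in capitals, from 250 bases before to 50 after the start. The B2m match began 139 bases before the start (chr2:122147437-122147736, plus strand), and the Bst2 matches, which overlap, began 130 and 124 bases before it (chr8:71537423-71537722, minus strand). A match describes the letters only. Since the list was searched for being known for this element, its share of matches says nothing about the GqCNO mice.
B2m: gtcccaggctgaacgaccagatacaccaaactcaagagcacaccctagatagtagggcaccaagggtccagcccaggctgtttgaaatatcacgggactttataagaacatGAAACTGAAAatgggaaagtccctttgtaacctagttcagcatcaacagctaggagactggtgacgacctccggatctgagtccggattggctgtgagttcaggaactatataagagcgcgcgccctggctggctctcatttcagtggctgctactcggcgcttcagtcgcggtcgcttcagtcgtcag
Bst2: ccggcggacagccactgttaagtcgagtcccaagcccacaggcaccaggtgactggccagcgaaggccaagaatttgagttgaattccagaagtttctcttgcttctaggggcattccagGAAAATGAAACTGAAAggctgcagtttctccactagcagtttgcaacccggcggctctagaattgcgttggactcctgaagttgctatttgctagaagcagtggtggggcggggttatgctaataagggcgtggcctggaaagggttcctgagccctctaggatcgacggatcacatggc

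Complement genes, whose C1q proteins tag debris and synapses for removal, had higher levels in GqCNO mice, but none passed an adjusted p of 0.05. All 6 tested genes of the list had a positive difference, 3 of them at an unadjusted p under 0.05 (2.83% over all genes), with a median of 1.26 on array pair 1 and 0.22 on array pair 2, and the list summed to 28.3, 38.6 and 35.3 in GqCNO mice 801, 804 and 781 against 10.7, 19.8 and 8.6 in GqVeh mice 802, 784 and 785 and 1.32 and 1.81 in the CNO alone mice. C1qa was at 7.71, 15.4 and 14.9 in the GqCNO and 3.23, 6.87 and 2.28 in the GqVeh mice, with the groups apart (difference 1.57 ± 0.47, adjusted p = 0.205). C1qb was at 7.71, 10.1 and 13.6 against 2.82, 6.01 and 3.51, apart as well (adjusted p = 0.692).

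Most markers of microglia, astrocytes and oligodendrocytes had a positive difference too, but only the microglia median was positive on both array pairs. The 26 microglia markers summed to 41.1, 66.8 and 67.9 in the GqCNO mice and 25.6, 61 and 26 in the GqVeh mice, where mouse 784 lay above mouse 801, with 19 of 22 tested differences positive and 3 higher at an unadjusted p under 0.05, where 2.83% of all genes were. The 21 astrocyte markers summed to 195, 182 and 127 against 125, 147 and 112, with 14 of 21 positive, 3 higher and 1 lower. The 18 oligodendrocyte markers summed to 283, 241 and 132 against 113, 151 and 182, with 16 of 18 positive and 2 higher. On array pair 1 the medians were 0.62 for microglia, 0.13 for astrocytes and 1.09 for oligodendrocytes. On array pair 2 they were 0.74 for microglia, -0.00186 for astrocytes and -0.18 for oligodendrocytes. Mice 801 and 804 had the highest astrocyte and oligodendrocyte sums, and mouse 781 lay within the GqVeh range in both. None of these markers passed an adjusted p of 0.05, and their part in the antigen presentation and complement levels was not tested.

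Of 16 reactive astrocyte genes 7 were tested, and all 7 had a positive difference, 4 at an unadjusted p under 0.05 (2.83% over all genes). Members with few GqVeh UMIs could pass the filter through the GqCNO mice. Cxcl10, with 19 UMIs in GqCNO and 0 in GqVeh mice, could only come out positive. Gfap was at 15.4, 15.6 and 8.15 against 6.25, 7.73 and 1.4, apart (difference 1.46 ± 0.48, adjusted p = 0.351), although discs high in Gfap had been left out. Vim, another intermediate filament, was at 1.29, 2.4 and 2.04 against 0.404, 0.859 and 0, and Cd63, a lysosomal tetraspanin, at 3.86, 5.31 and 2.72 against 2.22, 0.859 and 0.526. Apod, an apolipoprotein of oligodendrocytes and astrocytes, was at 50.1, 23.1 and 10.2 against 8.88, 9.45 and 9.65, apart but close in mouse 781 (difference 1.25 ± 0.35, adjusted p = 0.129). Of 10 endothelial genes tested 7 were positive, with a median of 0.47 that was -0.30 on array pair 2 and -0.42 without mouse 801. Only Ly6a reached an unadjusted p under 0.05, at 6.43, 8.22 and 4.76 against 1.41, 3.44 and 0.877 (adjusted p = 0.335). Only 1 of 12 T cell genes, Ccl5, was tested, at 0, 14.6 and 4.76 against 1.01, 2.58 and 0.

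**Figure D4:**
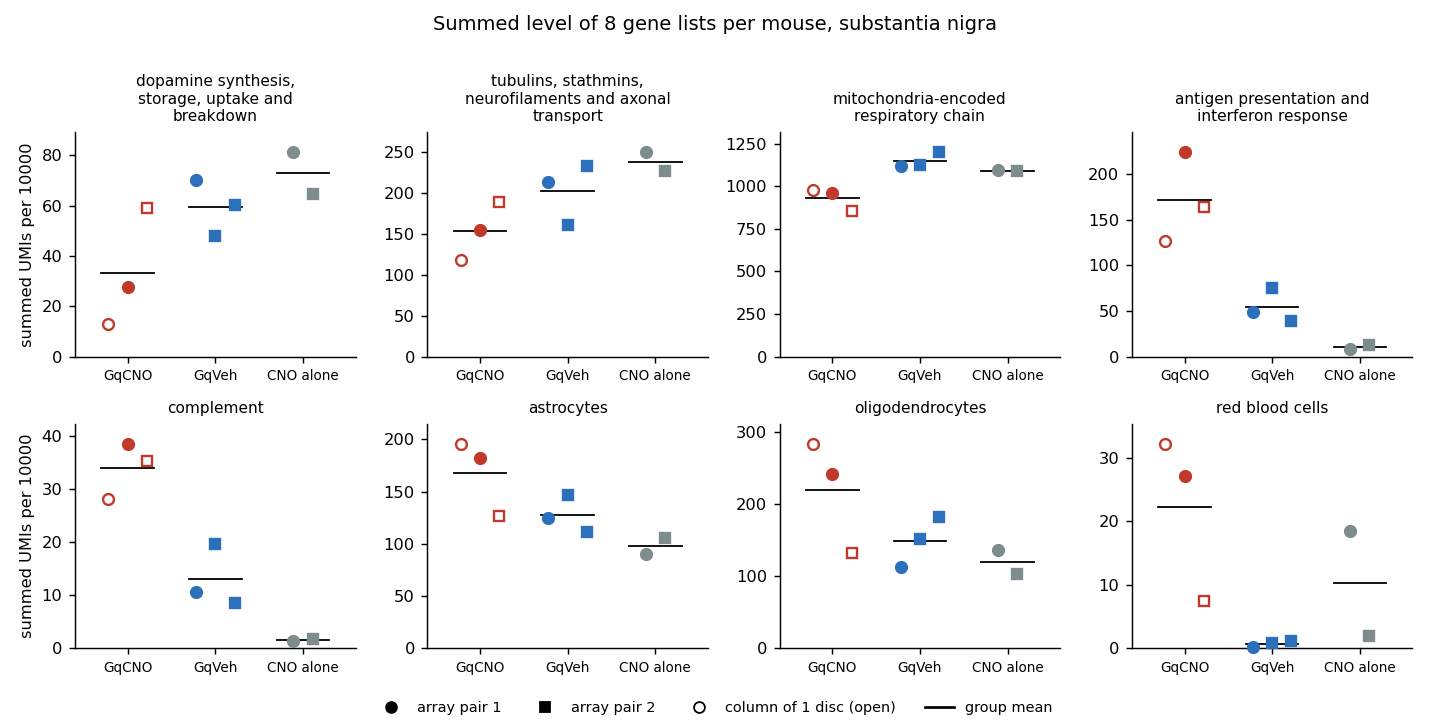
Summed level in UMIs per 10000 (y axis from 0) of 8 gene lists in the SN, 1 point per mouse, with circles for array pair 1, squares for array pair 2, open symbols for the columns of 1 disc and a line at the group mean. The antigen presentation, complement and red blood cell sums of all GqCNO mice lie above all GqVeh mice and the mitochondria-encoded sum below, while the dopamine, astrocyte and oligodendrocyte sums of GqCNO mouse 781 lie within the GqVeh range.

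Genes of dopamine synthesis, storage, uptake and breakdown were mostly lower in GqCNO mice, and by how much differed with the array pair. Of 13 genes tested, 12 had a negative difference, 1 passed an adjusted p of 0.05 (Ddc, lower), and 6 reached an unadjusted p under 0.05, all downward, where 3.26% of all genes did. The median was -0.82, which split into -0.92 on array pair 1 and 0.37 on array pair 2, where mouse 781, with 1 disc, was the only GqCNO mouse. Without mouse 801 the median was -0.27, against -0.03 over all genes. On array pair 2 Slc18a2 (-0.43), Slc10a4 (-0.61) and Drd2 (-1.04) were still negative, while Ddc, Th and Slc6a3 were positive, and the difference between the pairs was not tested. The list summed to 12.9, 27.8 and 59.1 in GqCNO mice 801, 804 and 781, to 70.2, 48.1 and 60.4 in GqVeh mice 802, 784 and 785, and to 81.1 and 64.7 in the CNO alone mice. Fewer dopamine neurons in a disc and less of these RNAs per neuron cannot be told apart here.

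Ddc, which makes dopamine from L-DOPA, was at 0, 3.43 and 10.2 in GqCNO mice 801, 804 and 781 and at 16.1, 4.29 and 13.9 in GqVeh mice 802, 784 and 785. Mouse 781 lay above GqVeh mouse 784, so the groups overlapped. Ddc fell by 1.92 ± 0.41 on the log2 scale (adjusted p = 0.00334, exact permutation p = 0.200, 2-sided). With the array pair as a block Ddc did not pass (-1.71, adjusted p = 0.0589). Array pair 1 alone gave -3.57 and array pair 2 alone 0.37, the opposite sign. Without mouse 801, where Ddc was at 0, the difference was -0.69 (adjusted p = 0.856). In the VTA, Ddc was at 4.42 ± 0.615 against 12.3 ± 2.96 (SD, n = 3 each), a difference of -1.36 ± 0.23 (adjusted p = 0.0170).

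Slc18a2, the vesicular monoamine transporter, was at 2.57, 2.91 and 4.76 against 9.68, 5.15 and 8.42 in the SN, with the groups apart (difference -1.07 ± 0.43, adjusted p = 0.780). Slc10a4, a vesicle protein of monoamine neurons, was at 0, 0.685 and 2.04 against 3.63, 2.58 and 4.39, also apart (difference -1.79 ± 0.53, adjusted p = 0.201). Slc6a3, the dopamine transporter, was at 0, 2.74 and 5.44 against 6.05, 1.72 and 5.26, and its difference of -1.04 ± 0.49 became 0.0036 without mouse 801. The Th difference was -0.91 ± 0.31 (adjusted p = 0.490), split into -2.03 on array pair 1 and 0.70 on array pair 2. Drd2, the autoreceptor, was at 0, 0.685 and 0.679 against 2.02, 2.58 and 1.4, apart at levels below what a count of 0 allows in mouse 801 (adjusted p = 0.780).

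Among genes that mark dopamine neurons, Aldh1a1, the retinaldehyde dehydrogenase of ventral SN neurons, fell by 1.61 ± 0.34 on the log2 scale (adjusted p = 0.00234). It was at 6.43, 3.43 and 8.83 in GqCNO mice 801, 804 and 781, at 33.5, 32.6 and 5.97 in GqVeh mice 802, 784 and 785 and at 24.8 and 22.9 in CNO alone mice C2W2 and C1W7. All 3 GqCNO mice were low, and GqVeh mouse 785 was as low as they were (exact permutation p = 0.300, 2-sided). The call was kept without mouse 801 and was lost without mouse 804, 802 or 784. The VTA difference was -1.63 ± 0.43 (adjusted p = 0.0933).

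None of the other identity genes passed. With Aldh1a1, 10 of 18 had a negative and 8 a positive difference, with a median of -0.19, and 3 were lower at an unadjusted p under 0.05 (3.26% over all genes). Cpne7, a calcium-dependent membrane-binding copine, was at 0, 1.03 and 0 against 1.82, 5.15 and 1.4 (difference -2.01 ± 0.58, adjusted p = 0.150). Ret, the receptor for GDNF family ligands, was at 0, 1.71 and 2.72 against 5.65, 1.72 and 3.86. Nr4a2, a transcription factor of these neurons, had a difference of 0.19 ± 0.63.

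Axon growth and cytoskeleton genes were mostly lower in GqCNO mice, more so on array pair 1. Of 36 genes tested, 26 had a negative difference, where 3307 of all 6174 genes had, with a median of -0.30. The median was -0.58 on array pair 1 and -0.14 on array pair 2, where all genes tested had -0.11 and -0.12. Of the 36, 3 passed an adjusted p of 0.05, all lower (0.13% over all genes). An unadjusted p under 0.05 was reached by 6 downward (3.26% over all genes) and 1 upward (2.83%). All 3 GqCNO levels lay below all 3 GqVeh levels for 8 of the 36, against 6.96% of all genes. The list summed to 118, 155 and 189.6 in the GqCNO mice against 213, 161 and 234 in the GqVeh mice, with mouse 781 above mouse 784.

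Gap43, a protein of growing axon terminals (GRCm38.p6, chromosome 16, 42248552 to 42340651), was at 1.29, 6.0 and 5.44 in GqCNO mice 801, 804 and 781, at 14.7, 11.2 and 13.7 in GqVeh mice 802, 784 and 785 and at 14.8 and 13.4 in the CNO alone mice. The highest GqCNO mouse lay well below the lowest GqVeh mouse, and the GqVeh and CNO alone mice lay close together. Gap43 fell by 1.73 ± 0.39 on the log2 scale (adjusted p = 0.00573), at -2.16 on array pair 1 and -1.12 on array pair 2. Without mouse 801 the difference was -1.13 (adjusted p = 0.322).

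Tubb2a, a beta-tubulin, was at 0, 6.17 and 4.76 against 11.5, 7.73 and 10.0, with the groups apart, and fell by 1.96 ± 0.43 on the log2 scale (adjusted p = 0.00362). Stmn2, a regulator of microtubule growth in axons, was at 0, 4.11 and 5.44 against 9.68, 5.15 and 9.48, where mouse 781 lay above mouse 784, and fell by 1.8 ± 0.44 (adjusted p = 0.0279). Both were at 0 in mouse 801. Without it the differences were -0.77 (adjusted p = 0.856) for Tubb2a and -0.67 (adjusted p = 0.856) for Stmn2. With the array pair as a block Tubb2a passed and Stmn2 did not (-1.61, adjusted p = 0.230). Nefm, the medium neurofilament chain, went the other way at 1.29, 1.88 and 2.72 against 0.202, 0 and 0.877 and did not pass (adjusted p = 0.706).

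The remaining lower genes were neuronal too. Rtn1, a reticulon of the neuronal endoplasmic reticulum, was at 2.57, 8.4 and 14.9 against 20.8, 18 and 17.5, apart, and fell by 1.36 ± 0.33 (adjusted p = 0.0279). Meg3, an imprinted long noncoding RNA, was at 2.57, 5.65 and 6.12 against 18, 19.8 and 6.49, apart by a narrow margin between mice 781 and 785, and fell by 1.46 ± 0.36 (adjusted p = 0.0279). Aplp1, a relative of the amyloid precursor protein, was at 0, 9.42 and 6.12 against 8.68, 9.45 and 11.4, so mouse 804 lay among the GqVeh mice and mouse 801 alone was at 0, and fell by 1.68 ± 0.43 (adjusted p = 0.0403). Without mouse 801 the differences were -0.71 (adjusted p = 0.856) for Rtn1, -1.11 (adjusted p = 0.322) for Meg3 and -0.34 (adjusted p = 0.878) for Aplp1. None of the 3 kept its call with the array pair as a block (-1.24, -1.45 and -1.42 in the same order) or with TMM scaling (-1.6, -1.7 and -1.73).

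Synaptic vesicle genes had a median difference of -0.19 over 45 tested, with 26 negative, where 3307 of all 6174 genes were, and 5 were lower at an unadjusted p under 0.05 (3.26% over all genes) and none passed an adjusted p of 0.05. Syt1, the calcium sensor of vesicle release, was at 1.29, 1.54 and 2.72 against 6.66, 2.58 and 5.26 (adjusted p = 0.780). Syngr3, a vesicle protein, was at 0, 1.2 and 1.36 against 2.42, 4.29 and 2.46, apart (adjusted p = 0.494). Snap25, which drives vesicle fusion, was at 7.71, 5.14 and 9.51 against 7.06, 3.44 and 15.1, with overlapping groups. Of 16 genes that the study named from these midbrain samples, and which are therefore no independent evidence, 13 had a negative difference, 9 were lower and 1 (S100a6) higher at an unadjusted p under 0.05, and Ddc alone passed an adjusted p of 0.05. Those not described elsewhere include Trpc6, a cation channel (difference -1.65 ± 0.63), Eif3g, a translation initiation factor subunit (-1.47 ± 0.62), Ap2a1, an endocytic adaptor (0.28 ± 0.55), Hspa4, a chaperone (-0.26 ± 0.56), and S100a6, a calcium-binding protein (1.46 ± 0.60). The median of the 16 was -1.44 on array pair 1 and 0.10 on array pair 2.

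Calcium sensors, pumps and kinases went both ways: of 34 tested, 7 reached an unadjusted p under 0.05, 3 upward and 4 downward (2.83% and 3.26% over all genes), with a median of -0.26. Pvalb, the calcium buffer parvalbumin, was at 6.43, 4.11 and 1.36 against 0, 0.859 and 0.877, apart (difference 2.0 ± 0.59, adjusted p = 0.201). Camta1, a calmodulin-binding transcription factor, was at 0, 0.857 and 0 against 4.04, 1.72 and 1.58, apart (difference -1.98 ± 0.59, adjusted p = 0.204). Pcp4, a calmodulin-binding peptide, was at 0, 3.08 and 9.51 against 10.7, 3.44 and 7.37 (difference -1.42 ± 0.46), and Calb2, calretinin, had a difference of -1.56 ± 0.55. Calm2, calmodulin, was at 5.14, 6.17 and 4.76 against 7.06, 10.3 and 10.7, with the groups apart (difference -0.74 ± 0.40, adjusted p = 0.806). None of 26 ion channel genes reached an unadjusted p under 0.05. Of 26 activity-regulated genes only 9 were tested, and none reached it either. The median of the 9 was -0.55, with 4 positive and 5 negative. Vgf, an activity-driven neuropeptide precursor and 1 of the 4 positive ones, was at 7.71, 2.91 and 2.04 against 2.02, 1.72 and 1.75.

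Transcripts of the mitochondrial genome, which encodes core subunits of the respiratory chain, were lower in GqCNO mice, none past an adjusted p of 0.05. Their summed level was 977, 959.9 and 855 in GqCNO mice 801, 804 and 781, 1118, 1126 and 1198 in GqVeh mice 802, 784 and 785, and 1093 and 1090.2 in CNO alone mice C2W2 and C1W7. The sums did not overlap, 12 of 13 differences were negative, 4 at an unadjusted p under 0.05 (3.26% over all genes), and the median was -0.36, with -0.23 and -0.57 within array pairs 1 and 2. mt-Co3, a subunit of cytochrome c oxidase, was at 162, 157 and 139 against 199, 212 and 201 (difference -0.42 ± 0.13, adjusted p = 0.215), and mt-Co1 at 243, 261 and 249 against 295, 310.0 and 298 (adjusted p = 0.780). The 70 nuclear-encoded respiratory chain genes had a median of -0.01, with 33 positive and 37 negative. In the VTA the mitochondria-encoded median was 0.05.

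Stress genes went both ways. Cytosolic chaperones had a median of -0.24 over 22 genes, endoplasmic reticulum and integrated stress genes 0.02 over 19 (-0.12 with TMM scaling), and oxidative stress genes and metallothioneins -0.05 over 21, none past an adjusted p of 0.05. Atf4, the integrated stress transcription factor, was at 5.14, 3.26 and 2.72 against 2.42, 0.859 and 1.05, apart (adjusted p = 0.796). Ftl1, the ferritin light chain that stores iron, was at 12.9, 11.3 and 15.6 against 3.83, 8.59 and 4.74, apart (difference 1.21 ± 0.40, adjusted p = 0.403). Prdx1, a peroxiredoxin, was at 0, 2.91 and 4.08 against 3.83, 6.87 and 4.56 (difference -1.46 ± 0.50, adjusted p = 0.490). Gclm, of glutathione synthesis, had a difference of -1.42 ± 0.63, and Dnaja2, a co-chaperone, one of -1.28 ± 0.59. Glucocorticoid-responsive genes were split, with 4 of 7 tested positive and 3 negative (Per1, Cdkn1a and Nfkbia), none past an adjusted p of 0.05. Mt1, a metallothionein that glucocorticoids induce, was at 30.9, 22.4 and 20.4 against 13.7, 18 and 14.9 (adjusted p = 0.806). Sgk1, a kinase they induce, was at 1.29, 1.37 and 1.36 against 0.202, 0.859 and 0.175 (adjusted p = 0.806). It rested on 11 UMIs in the GqCNO and 3 in the GqVeh group.

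Among other genes whose groups were apart, Hist1h1c, a linker histone, was at 5.14, 1.03 and 2.72 against 0.404, 0 and 0.175 (difference 2.17 ± 0.61, adjusted p = 0.129). Its ratio of summed UMIs per depth was 6.82 (95% exact interval 1.9 to 37), with 3 UMIs in the GqVeh group. H2-Q6, a nonclassical class I gene, was at 2.57, 1.37 and 2.04 against 0.202, 0 and 0. A 0 in mouse 784 allows up to 2.58, above all GqCNO levels of H2-Q6 and above the 1.03 of Hist1h1c in mouse 804. Fnta, a farnesyltransferase subunit, was at 0, 0.343 and 0 against 1.61, 2.58 and 1.4, Chd3, a chromatin remodeler, at 0, 0.343 and 0 against 1.21, 1.72 and 1.58, and Cck, a neuropeptide, at 0, 0.343 and 0.679 against 2.02, 0.859 and 4.91. Every GqVeh level of these 3 genes, except Cck in mouse 785, lay below the 3.86 that a count of 0 allows in mouse 801.

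The gene groups went differently across the array pairs. Mouse 802 was the only GqVeh mouse of array pair 1 and mouse 781 the only GqCNO mouse of array pair 2. Pair and mouse therefore cannot be told apart. Within array pair 1 (801 and 804 against 802) and array pair 2 (781 against 784 and 785), the antigen presentation median was positive in both, the mitochondria-encoded median negative in both, and the dopamine median negative in the first and positive in the second. A fit with the array pair as a block called 4 genes higher and 3 lower: Hba-a1, Hba-a2, Hbb-bs, Cd74, Aldh1a1, Gap43 and Tubb2a.

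**Figure D5:**
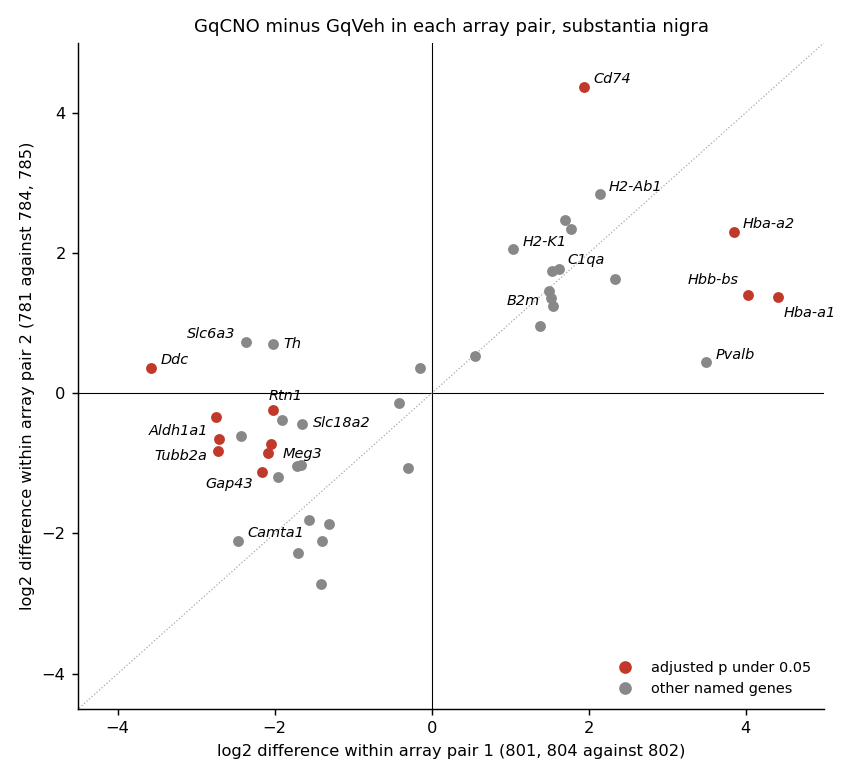
The log2 difference of GqCNO minus GqVeh on array pair 1 (x axis) and on array pair 2 (y axis) for the called and other named genes, with a dotted line where both are equal. Ddc, Th and Slc6a3 lie left of 0 and above 0, while Cd74, H2-Ab1, B2m and C1qa lie above 0 in both pairs and Gap43, Tubb2a and Meg3 below 0 in both.

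The VTA of the same 6 mice, next to the SN and deeper sequenced in most (25808 to 350222 UMIs over all 8 mice), gave 20 genes higher (0.317% of 6312 tested) and 10 lower (0.158%). Upward, 10 antigen presentation and interferon-response genes passed there, among them B2m, H2-D1, H2-K1, H2-Aa, Isg15 and Psmb8, and 4 complement genes did, C1qa, C1qb, C3 and C4b. Downward, the 4 dopamine genes Ddc, Slc6a3, Slc18a2 and Slc10a4 passed. B2m was at 39.3 ± 20.1 against 12 ± 5.23 in the VTA (SD, n = 3 each), a difference of 1.63 ± 0.34 beside 1.3 ± 0.34 in the SN. Slc6a3 had a difference of -2.05 ± 0.26 in the VTA beside -1.04 ± 0.49 in the SN, and Gap43 -0.36 ± 0.23 beside -1.73 ± 0.39.

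A test of the SN response against the VTA response within mice called none of 5341 genes in limma (smallest adjusted p = 0.21). An unadjusted p under 0.05 was reached by 134 and 196 genes in either direction, so no gene was shown to respond differently in the 2 regions. Unlike the main fit, this test left out the trend of the spread with level. The SN fit without that trend called no gene lower either, Gap43 and Ddc included. No count tool was run on this difference. The SN minus VTA differences of Gap43 (-1.38, adjusted p = 0.798) and Ddc (-0.56, adjusted p = 0.924) did not pass. In the thalamus, given for 5 of the 6 mice and without mouse 801, none of 6399 genes passed in limma (smallest adjusted p = 0.999), and an unadjusted p under 0.05 was reached by 37 genes upward and 46 downward. The B2m difference there was 0.78 ± 0.38 and the Hba-a1 difference 0.85 ± 0.36.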

How the data were processed

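Spatial transcriptomes of 10 µm sections were made on Visium arrays. Per the labels, reads were aligned to mm10 with Space Ranger (version not given in the sources used here), and the study averaged chosen discs per region and mouse in Loupe Browser. The deposited values are signal: average UMIs per disc, scaled by the authors to a common median total per array pair. Low values were whole multiples of 1 step in all columns (tolerance 0.05 steps), so UMI counts were recovered for 100% of them. Genes missing from 1 of the 2 tables (2316 of 17220) were set to 0.

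Each column was rescaled to 10000, 0.5 was added and log2 taken. Genes with a mean of at least 0.25 over the 8 SN columns were fitted in limma 3.58.1 (R 4.3.3; trended eBayes, 3 group means, Benjamini-Hochberg over 6174 genes). The SN minus VTA test took the difference within each mouse and used eBayes without the trend. edgeR 4.0.16 and DESeq2 1.42.0 on recovered counts, and 25 alternatives in all, were tried, 2 of them (no trend, robust prior) chosen after seeing the data. Functions were tested on simulated data. Each mouse counted as 1 replicate, and arrays as a block only as an alternative. The columns hold 7779 to 71906 UMIs, and their intervals cover counting error only. Symbols of 6104 tested genes matched GRCm38.p6 in RefSeq, the source of coordinates and promoters.

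Genes were named from those past an adjusted p of 0.05, up to 8 largest differences each way among genes with groups apart at an unadjusted p under 0.05 and a UMI in every mouse of the higher group, up to 4 members of smallest p per list, genes the study named, and further list members chosen after their values were seen (H2-K1, H2-D1, H2-Aa, Psmb8, Isg15, Ifit1 and Nr4a2 among them). The comparison, its members and the 28 gene lists were chosen with earlier results of these data known. One gene that this rule picked is not reported here, and list members it picked are in part given only within the counts of their list.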

Additional observations from a re-analysis of the deposited data

How the results depend on the processing

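Calls depended on the setting. Against 4 higher and 8 lower genes as reported, the counts were 4 and 5 on values as deposited, 3 and 0 with TMM scaling (which moved the median of all genes from -0.06 to -0.20), 7 and 6 with a constant of 1, 0 and 0 with no filter (207 and 342 at an unadjusted p under 0.05 of 17220 genes), 0 and 0 with a mean of at least 1 (62 and 78 of 1817), 6 and 4 with the 6 mice alone, 4 and 3 with the array block, 43 and 19 with array weights, 0 and 0 after thinning to 7779 UMIs (128 and 131), 14 and 1 in edgeR, 1 and 0 in DESeq2 (48 and 22), 0 and 1 in the methods' t-test after Benjamini-Hochberg (107 and 164 before it), 7 and 1 without mice 801 and 781, 12 and 2 without the 3 shallowest mice, and, chosen after seeing the data, 4 and 0 with no trend and 4 and 4 with the robust prior. With a constant of 0.1 they were 4 and 10, with a median of -0.18 over all genes.

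Leaving out 1 mouse gave 1 to 10 higher and 0 to 19 lower genes: 10 and 1 without 801, 1 and 0 without 804, 9 and 19 without 781, 3 and 0 without 802, 7 and 9 without 784, 4 and 2 without 785, and 4 and 4 without either CNO alone mouse. The SN minus VTA test called 1 gene with a constant of 1 and 0 to 1 when 1 mouse was left out (1 without 781, C2W2 or C1W7).

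Of 994 recomputed differences of 37 named genes, 13 changed sign: within array pair 2, Ddc (0.37), Th (0.70), Slc6a3 (0.73) and Snap25 (0.35); after thinning, Calm2 (0.00026) and Hspa4 (1.22); Ap2a1 in edgeR (-0.23) and without the 3 shallowest mice (-0.10); Slc6a3 without 801 (0.0036, from -1.78 over the mice left out); and Snap25, whose main difference is near 0, with a constant of 0.1 (0.011), the array block (0.10), without 804 (0.23) and without 785 (0.50; lowest -0.49, without 784). The causes were not tested. No paired analysis was possible because the mice of the groups compared share no replicate numbers, and the array pair, a batch of several mice, entered as the array block instead.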

Other observations

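Oligodendrocyte precursor, GABA and glutamate neuron markers were thinly measured in the SN discs. The 4 tested precursor genes had a median difference of 0.54, and their list summed to 10.3, 8.4 and 2.72 in GqCNO mice 801, 804 and 781 against 3.63, 3.44 and 5.26 in GqVeh mice 802, 784 and 785. The 6 GABA neuron genes had a median of -0.05, with Gad2, a GABA-synthesizing enzyme, at 0, 0.514 and 0 against 0.404, 2.58 and 0.877. The 4 glutamate neuron genes had a median of -0.12. The 6 subunits of the sodium-potassium ATPase, which restores the ion gradients spent in firing, had a median of -0.08, with 3 positive and 3 negative, and Atp1b1 was at 7.71, 10.8 and 8.83 against 12.9, 7.73 and 14.7. Malat1, an abundant nuclear long noncoding RNA, was at 6.43, 12.5 and 8.15 against 11.1, 12.9 and 6.49 and at 27 and 15.4 in the CNO alone mice.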
